A study of Mus musculus with 6 samples.

Results

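The genes described here are the conjugation enzymes and carboxylesterases measured in endothelial cells sorted from mouse liver. They were chosen by gene symbol alone, as every gene named Ugt, Gst, Sult or Ces with a class letter and number, pseudogenes left out. The choice gave 84 of the 26264 genes in the deposited expression table. By family, 22 were Ugt genes, 22 Gst genes, 21 Sult genes and 19 Ces genes. C57BL6 mice ate either a diet holding 1200 ppm PLX5622 or a control diet, in both cases for 1 month. PLX5622 is an oral inhibitor of CSF1R, the receptor kinase on which most tissue macrophages depend. From each mouse 1 liver lobe was made into a cell suspension, CD31+ cells were sorted, and non-stranded libraries were prepared from polyadenylated RNA. The labels name 3 biological replicates per diet, 6 libraries in all, and give no age or sex and no unsorted sample. The stated question of the series was whether the drug acts on cholesterol metabolism in endothelium outside the brain.

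Uridine diphosphate glucuronosyltransferases (Ugt) sit in the endoplasmic reticulum and attach sugars, mostly glucuronic acid, to bilirubin, steroids and drugs. Glutathione S-transferases (Gst) join glutathione to electrophiles, and sulfotransferases (Sult) move a sulphonate group from an activated sulphate donor to phenols, steroids and bile acids. Carboxylesterases (Ces) cut ester and amide bonds of drugs and lipids, which often exposes the group that is then conjugated. Many of these enzymes are best known from hepatocytes, where the receptors CAR and PXR and the stress factor NRF2 induce a part of them. Liver sinusoidal endothelial cells line the capillaries beside those hepatocytes.

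Between 14517959 and 32732212 reads per library were recovered from the expression values and the deposited mean counts, over the 15097 genes with such a mean. Pecam1, the gene for CD31, stood at 1712 ± 148 TPM on PLX5622 and at 1682 ± 259 TPM on the control diet (SD, n = 3 each). TPM is a length-scaled share of transcripts, so levels may be compared between genes. Hepatocyte transcripts were present in every library. The summed level of a list of 30 hepatocyte markers was between 2203 and 4379 TPM on PLX5622 and between 3155 and 7180 TPM on the control diet. Of these 30 markers, 27 had a fold change below 0, with a median log2 fold change of -0.38, and 0 were at 0 in every library. The 14 Kupffer cell markers summed to between 119 and 201 TPM on PLX5622 and to between 208 and 318 TPM on the control diet, and 12 of the 13 tested had a fold change below 0, with a median of -0.71. No 2 libraries of a diet agreed within sampling noise. In bulk RNA, fewer cells of a type and less RNA per cell cannot be told apart.

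Many members share sequence, which bears on which of them could be counted. Transcripts of all 84 members were cut into overlapping stretches of 50 bases, and the share of stretches found in another gene was taken from the GENCODE mouse annotation of GRCm38. The 9 Ugt1a genes, which are built from private first exons and common last exons, shared between 52.1% and 80.2% of their stretches. Gsta1 shared 90.5%, Ugt2a1 97.0% and Ugt2a2 93.6%. The median share was 13.7% in the 21 members listed at 0 in every library and 3.30% in the other 63. The handling of reads that match several genes is not given in the sources used here, and its part in these zeros was not tested. Gstp1 and Gstp2, neighbours on chromosome 19, are shown because the level of the first stood far above that of the second. Their coding sequences of 633 bases are 98.1% identical, with 12 differing bases. The first 90 coding bases are printed 5′ to 3′, with the 6 bases that differ between both genes in capitals.
Gstp2: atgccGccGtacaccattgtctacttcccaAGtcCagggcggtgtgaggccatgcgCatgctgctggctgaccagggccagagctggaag
Gstp1: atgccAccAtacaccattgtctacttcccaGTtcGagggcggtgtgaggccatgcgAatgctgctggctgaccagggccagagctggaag
Because of such stretches, values of the Ugt1a genes, Ugt2a1, Ugt2a2, Ugt2b5 (41.7% shared), Ugt2b38 (37.4%), Sult2a1, Sult2a2, Sult2a5, Gstp1, Gstp2, Gsta1 and Gsta2 are uncertain between copies, and so may be those of other members with shared stretches. Without strand, reads of a member and of an antisense transcript over it cannot be told apart.

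The members' levels covered a wide range. Listed at 0 in every library were 21 members, namely 5 Ugt, 1 Gst, 10 Sult and 5 Ces genes. They include Sult2a1, which acts on steroids and bile acids in hepatocytes, the oestrogen sulfotransferase Sult1e1, and Gsta1. A count of 0 allows up to 3 reads in a library, counting error only. A further 19 members were above 0 with a mean under 1 TPM, the level below which genes were not tested. The remaining 44 members, 8 Ugt, 19 Gst, 7 Sult and 10 Ces genes, were tested. These 44 passed on their mean over all libraries and are not all members.

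Gst genes held 77.9% of the summed level of the members, Ces genes 12.8%, Sult genes 6.45% and Ugt genes 2.78%. The Gst genes summed to 1332, 1462 and 1471 TPM on PLX5622 and to 1474, 1325 and 1233 TPM on the control diet. The Ces genes summed to 138, 256 and 270.1 TPM on PLX5622 and to 255, 210 and 237 TPM on the control diet. The libraries of both diets overlapped in each of these sums. The Sult genes summed to 107 ± 11.5 TPM on PLX5622 and to 122 ± 31.9 TPM on the control diet, and the Ugt genes to 50.4 ± 18.7 TPM on PLX5622 and to 48.4 ± 16.4 TPM on the control diet (SD, n = 3 each). The Ugt difference was smaller than either SD. The Sult difference was smaller than the SD of the control libraries but larger than that of the PLX5622 libraries, which lay inside the control range.

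**Figure D1:**
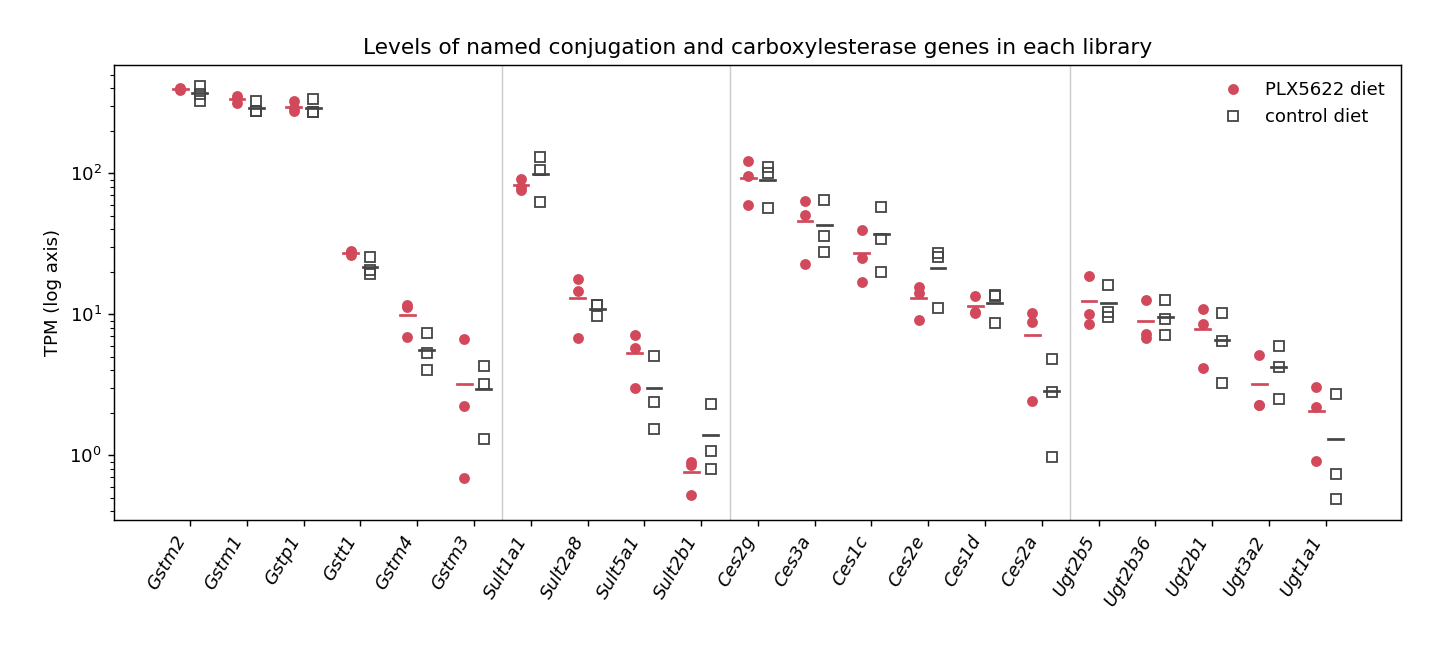
Level of the 21 named members with reads, in TPM on a log axis, by family and in order of mean level. Each symbol is 1 library, filled circles for PLX5622 and open squares for control, and short lines are means of 3 libraries. Gstm2, Gstm1 and Gstp1 stand highest, and only Gstt1 shows no overlap between diets.

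No member differed between diets after adjustment. The test was limma on log2(TPM + 1), adjusted by the Benjamini-Hochberg method over 13739 genes. It called 0 genes of either direction (0% of all tested), and so did a second limma fit, voom on reads recovered from the TPM. At an unadjusted p under 0.05, which 3.34% of all tested genes reached, 2 of 44 members were higher on PLX5622, both Gst genes, beside 1.64% of all tested genes. In the other direction 0 of 44 were lower, beside 1.7% of all tested genes. Of the 44 members, 22 had a log2 fold change above 0 and 22 below 0, beside 46.2% above 0 among all tested genes. The median was 0.01 over the members and -0.02 over all tested genes. By family the median was 0.12 for Ugt, 0.04 for Gst, -0.07 for Sult and -0.07 for Ces. Leaving out each library in turn, the median lay between -0.17 and 0.40 for Ugt, between -0.028 and 0.19 for Gst, between -0.16 and 0.035 for Sult and between -0.29 and 0.038 for Ces, so no family held its sign. The count of 2 members rested on single libraries. It was 5 without PLX5622 replicate 1, 1 without PLX5622 replicate 2, 0 without PLX5622 replicate 3, 6 without control replicate 1, 1 without control replicate 2 and 0 without control replicate 3. In the same order, 502, 304, 422, 847, 489 and 411 of all 13739 tested genes reached that level in either direction, against 459 with all libraries. The members counted changed as well: the 1 without PLX5622 replicate 2 was Gstm5, and the 1 without control replicate 2 was Sult5a1. Gstm4 stayed at an unadjusted p under 0.05 only without PLX5622 replicate 1 or control replicate 1. Gstt1 did so only without control replicate 1. Without control replicate 1, 2 members were lower at that level, Sult1a1 and Ces2e. With 3 libraries per diet, an absent call does not show equal levels. Among the 44 tested members, libraries of both diets were apart in 1, Gstt1, higher on PLX5622, beside 4.18% of all tested genes. In the other direction 0 were apart and lower, beside 4.5%. Ugt1a7c and Ugt2b37, below the tested level with means of 0.355 and 0.321 TPM, were also apart and higher. How many untested genes were apart in this way was not counted. Ugt1a7c had 14, 8 and 10 reads on PLX5622 and 7, 9 and 5 on the control diet, which overlap, and shared 53.7% of its stretches. Ugt2b37 was at 0.219, 0 and 0 TPM on the control diet. With no filter, Ugt2b37 also had an unadjusted p under 0.05 in limma, as had 699 of 19093 genes in either direction. In the authors' deposited table, which holds 52 of the members, 0 members and 11 of 15097 genes (0.0729%) were called. Before adjustment, 2 members were higher at p under 0.05 in the authors' deposited table, Gstm4 and Ces2a, beside 1.55% of its genes, and 1 lower, Ces2e, beside 1.63%.

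**Figure D2:**
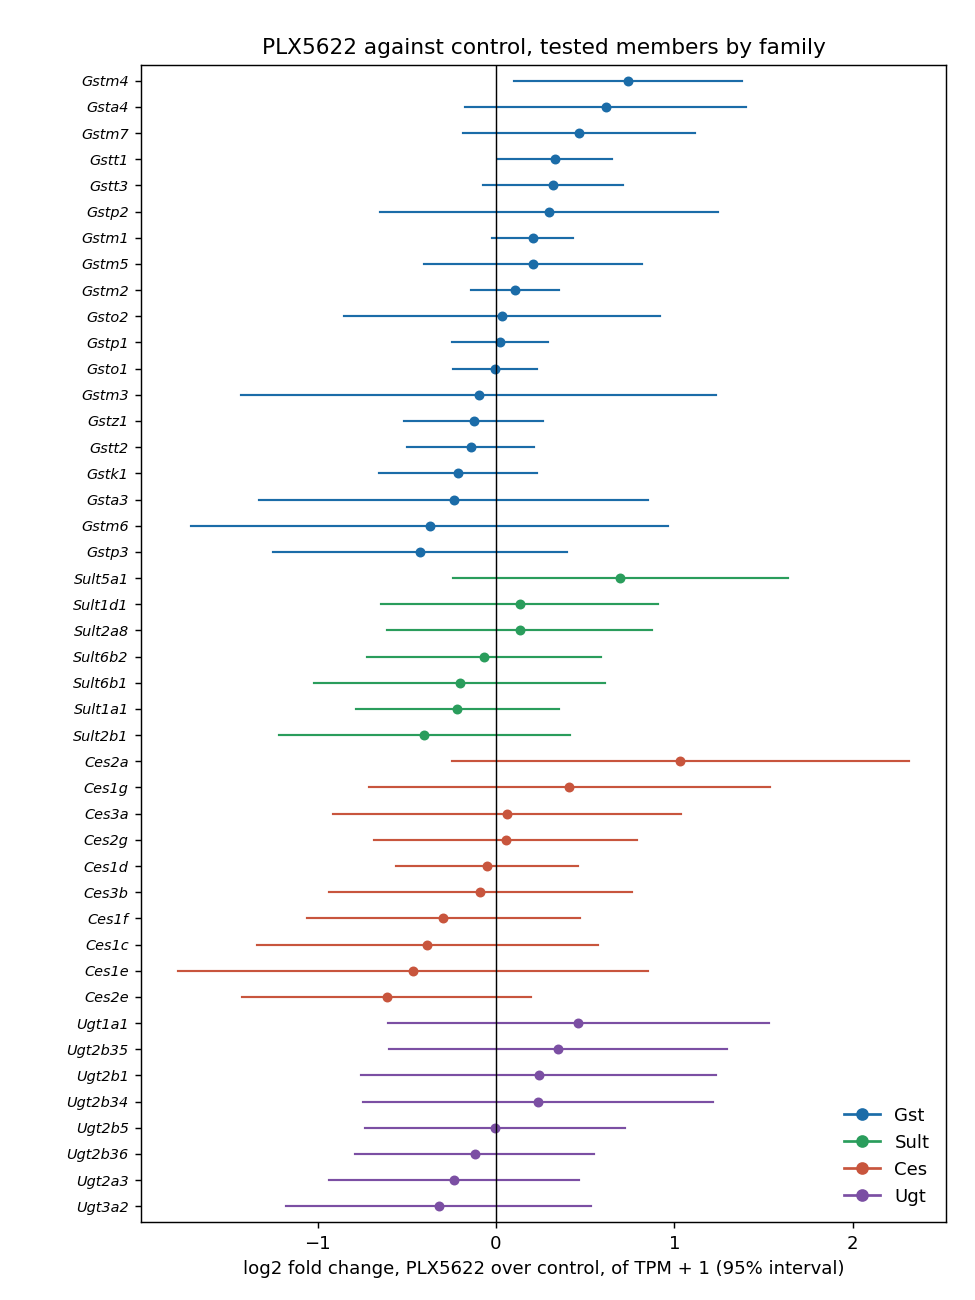
Log2 fold change of TPM + 1, PLX5622 over control, of the 44 tested members by family. Points are limma estimates from 3 libraries per diet and lines are 95% intervals. The intervals of Gstm4 and Gstt1 alone leave out 0 before adjustment, and Ces2a has the largest estimate, 1.03.

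Among the Gst genes the abundant members held nearly even levels. Gstm2 and Gstm1, of the mu class of cytosolic transferases, stood highest. Gstm2 was at 394, 403 and 391 TPM on PLX5622 and at 419, 363 and 327 TPM on the control diet. Gstm1 was at 318, 342 and 353 TPM on PLX5622 and at 326, 278 and 276 TPM on the control diet. For both genes 1 control library, replicate 1, lay within or above the PLX5622 libraries. The log2 fold change was 0.11 for Gstm2 (95% interval -0.14 to 0.35) and 0.21 for Gstm1 (95% interval -0.02 to 0.43). Gstp1, of the pi class that many tissues outside the liver carry, was at 275, 290.0 and 325 TPM on PLX5622 and at 337, 271 and 272 TPM on the control diet. Its groups overlapped, and its log2 fold change was 0.02 (95% interval -0.25 to 0.29). Gstp2 stood at 3.15 ± 2.10 TPM on PLX5622 and at 2.10 ± 0.458 TPM on the control diet (SD, n = 3 each). The steadiest member was Gsto1, an omega-class enzyme that reduces dehydroascorbate, at 103 ± 10.1 TPM on PLX5622 and 103 ± 5.57 TPM on the control diet (SD, n = 3 each).

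Gstm4 and Gstt1 were the genes behind that count of 2. Gstm4, another mu-class gene, was at 6.91, 11.3 and 11.7 TPM (90, 114 and 140 reads) on PLX5622. On the control diet it was at 7.33, 4.03 and 5.33 TPM (119, 77 and 45 reads). PLX5622 replicate 1 lay below control replicate 1, so the groups overlapped. The log2 fold change was 0.74 (95% interval 0.10 to 1.38, adjusted p = 1.00 in limma). Gstt1, a theta-class enzyme that acts on small halogenated compounds, was at 28.2, 26.3 and 27.8 TPM on PLX5622 and at 25.5, 20.5 and 19.3 TPM on the control diet. All 3 PLX5622 libraries lay above all 3 control libraries, with a gap smaller than the spread of the control libraries. The log2 fold change was 0.33 (95% interval 0.01 to 0.65, adjusted p = 1.00 in limma). Over the alternative settings the log2 fold change lay between 0.50 and 0.96 for Gstm4 and between 0.25 and 0.44 for Gstt1, with a smallest adjusted p of 0.610 for both. Neither gene shared a 50-base stretch with another gene. The authors' deposited table gives Gstm4 a log2 fold change of 0.85 (standard error 0.38, p = 0.0248, adjusted p = 0.999). For Gstt1 the authors' deposited table gives a log2 fold change of 0.34 (standard error 0.24), which was not under 0.05 before adjustment. In the voom fit of limma, Gstm4 had an unadjusted p under 0.05 and Gstt1 did not.

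Gsta1 and Gstm3 are known as NRF2 targets in mouse liver. Gsta1 was listed at 0 throughout, which with its shared stretches does not show that it was scarce. Gstm3 was at 2.24, 6.64 and 0.696 TPM on PLX5622 and at 4.29, 3.20 and 1.32 TPM on the control diet. The PLX5622 libraries held both its highest and its lowest value, 9.54-fold apart. Its log2 fold change was -0.10 (95% interval -1.43 to 1.23). Nfe2l2, the gene for NRF2, was at 215 ± 42.5 TPM on PLX5622 and at 223 ± 54.8 TPM on the control diet (SD, n = 3 each).

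Of the Sult genes, Sult1a1, a phenol sulfotransferase, held most of the RNA. It was at 75.7, 90.6 and 80.3 TPM on PLX5622 and at 62.8, 105 and 131 TPM on the control diet. The PLX5622 libraries lay inside the control range, and the log2 fold change was -0.22 (95% interval -0.79 to 0.35). Sult2a8, a bile acid sulfotransferase of mouse liver, was at 6.76, 17.7 and 14.6 TPM on PLX5622 and at 11.6, 11.6 and 9.79 TPM on the control diet. Here the control libraries lay inside the PLX5622 range. Sult5a1 was at 7.20, 3.01 and 5.77 TPM on PLX5622 and at 2.40, 5.06 and 1.54 TPM on the control diet, with a log2 fold change of 0.70 (95% interval -0.24 to 1.64). Sult2b1, a cholesterol sulfotransferase, was at 0.523, 0.902 and 0.851 TPM on PLX5622 and at 2.31, 1.07 and 0.805 TPM on the control diet. The Sult2b1 levels rest on between 6 and 33 reads per library. The groups overlapped in Sult5a1 and in Sult2b1.

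The Ugt genes were scarcer still, and the 3 most abundant were of the Ugt2b group, which conjugates steroids and drugs. Ugt2b5 was at 8.48, 10.1 and 18.6 TPM on PLX5622 and at 16.3, 10.4 and 9.62 TPM on the control diet. Ugt2b36 was at 6.80, 7.23 and 12.7 TPM on PLX5622 and at 12.6, 7.14 and 9.23 TPM on the control diet. In both genes PLX5622 replicate 3 and control replicate 1 were the 2 highest libraries. Ugt2b1 was at 7.85 ± 3.41 TPM on PLX5622 and at 6.62 ± 3.45 TPM on the control diet, and Ugt3a2 at 3.23 ± 1.66 TPM on PLX5622 and at 4.25 ± 1.75 TPM on the control diet (SD, n = 3 each). Ugt1a1, the enzyme that conjugates bilirubin, was at 0.915, 2.22 and 3.07 TPM on PLX5622 and at 2.71, 0.488 and 0.736 TPM on the control diet. Its groups overlapped through control replicate 1. The log2 fold change was 0.46 (95% interval -0.61 to 1.53), the estimate farthest from 0 in the family. Summed over the 9 Ugt1a genes, which share their last exons, the level was 4.59 ± 1.76 TPM on PLX5622 and 3.55 ± 1.17 TPM on the control diet (SD, n = 3 each).

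Among the carboxylesterases, Ces2a and Ces2e, members of 1 subfamily on chromosome 8, had estimates of opposite sign. Ces2a, known as a target of CAR and PXR in mouse liver, was at 2.42, 8.81 and 10.3 TPM (37, 104 and 145 reads) on PLX5622. On the control diet it was at 4.83, 0.981 and 2.82 TPM (92, 22 and 28 reads). PLX5622 replicates 2 and 3 lay above every control library, while PLX5622 replicate 1 lay below control replicates 1 and 3. The log2 fold change was 1.03 (95% interval -0.25 to 2.32, adjusted p = 1.00 in limma). Ces2e was at 9.14, 15.6 and 14.2 TPM on PLX5622 and at 11.1, 27.1 and 25.7 TPM on the control diet. Control replicate 1 lay among the PLX5622 libraries, and the other two control libraries lay above them all. The log2 fold change was -0.61 (95% interval -1.42 to 0.20, adjusted p = 1.00 in limma). The authors' deposited table gives a log2 fold change of 1.32 for Ces2a (standard error 0.63, p = 0.0344) and of -0.70 for Ces2e (standard error 0.33, p = 0.0367), both with an adjusted p of 0.999.

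The windows from 250 bases before to 50 bases after the start of Ces2a and Ces2e are printed from RefSeq (GRCm38.p6), 5′ to 3′ along the gene, because these 2 genes had the estimates farthest from 0 in the family. Capitals mark AGGTCA, a nuclear receptor half-site, searched on both strands.
Ces2a, chr8:104733753-104734052, + strand: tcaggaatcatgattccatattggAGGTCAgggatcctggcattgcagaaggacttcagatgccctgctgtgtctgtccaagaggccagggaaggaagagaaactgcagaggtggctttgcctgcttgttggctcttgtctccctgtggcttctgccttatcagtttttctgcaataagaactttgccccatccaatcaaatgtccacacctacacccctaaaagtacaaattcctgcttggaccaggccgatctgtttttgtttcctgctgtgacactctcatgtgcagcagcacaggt
Ces2e, chr8:104926010-104926309, + strand: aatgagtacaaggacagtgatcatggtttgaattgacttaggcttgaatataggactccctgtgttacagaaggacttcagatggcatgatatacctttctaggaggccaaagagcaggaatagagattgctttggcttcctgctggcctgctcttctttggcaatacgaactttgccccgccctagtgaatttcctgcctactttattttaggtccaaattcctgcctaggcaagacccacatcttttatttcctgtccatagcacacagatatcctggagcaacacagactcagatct
The motif was found 226 bases before the start of Ces2a and not in the Ces2e window. Members were matched to such windows by symbol, which gave 84 windows for 72 of the 84 members. The motif was held by 17.9% of these windows and by 16.3% of all 32851 windows, so a match is common. A match does not show binding.

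The other carboxylesterases overlapped between diets. Ces2g, the most abundant, was at 60.1, 123 and 96.4 TPM on PLX5622 and at 56.8, 101 and 111 TPM on the control diet. Ces3a was at 22.9, 50.6 and 64.1 TPM on PLX5622 and at 65.1, 27.7 and 36.0 TPM on the control diet. Ces1c, whose product is secreted into mouse plasma, was at 17.0, 25.2 and 40.0 TPM on PLX5622 and at 57.5, 19.99 and 34.0 TPM on the control diet. PLX5622 replicate 1 was the lowest library for Ces3a and Ces1c and control replicate 1 the highest, whereas both were low for Ces2g. Ces1d, a triacylglycerol hydrolase, was at 11.4 ± 1.81 TPM on PLX5622 and at 12.0 ± 2.88 TPM on the control diet (SD, n = 3 each).

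Levels of many Ugt and Ces genes had a positive slope on the hepatocyte markers, although no single slope passed adjustment. A hepatocyte score was formed per library by averaging log2(TPM + 1) over the 30 markers and subtracting the average of the 6 libraries. It was -0.63, -0.41 and 0.45 on PLX5622 and 0.86, -0.17 and -0.10 on the control diet. A slope on this score was fitted beside the diet for each gene, as a description over 6 libraries that differ in depth and composition. The slope passed adjustment in 0 of 44 members (0% of all tested genes; smallest adjusted p of a member 0.346 in limma). It was above 0.5 in 16 of 44 members, beside 5.62% of all tested genes. These were 7 of 8 Ugt genes, 7 of 10 Ces genes, 2 of 19 Gst genes and 0 of 7 Sult genes. Leaving out each library in turn gave between 14 and 21 members, beside between 5.58% and 10.5% of all tested genes. The steepest slopes were 1.49 for Ces1e, 1.17 for Ces2a, 1.08 for Ces1c, 1.06 for Ces3a and 1.03 for Ugt1a1. Just inside the value of 0.5 lay Ces1g at 0.51 and Gstm4 at 0.52, and just outside Gsta3 at 0.497 and Sult2b1 at 0.47. Whether hepatocyte RNA in the libraries set the levels of these genes was not tested.

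With the score in the fit, 5 members were higher on PLX5622 at an unadjusted p under 0.05, beside 1.56% of all tested genes, and 0 were lower, beside 1.4%. They were Ces2a with a log2 fold change of 1.498 (95% interval 0.45 to 2.55), Gstm4 with 0.95, Ugt1a1 with 0.87, Gstt1 with 0.40 and Gstm1 with 0.28. None passed adjustment in limma. Sult1a1 and Ces2e had slopes of -0.44 and -0.42 on the score, but without control replicate 1 the slopes were 0.015 and 0.33.

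**Figure D3:**
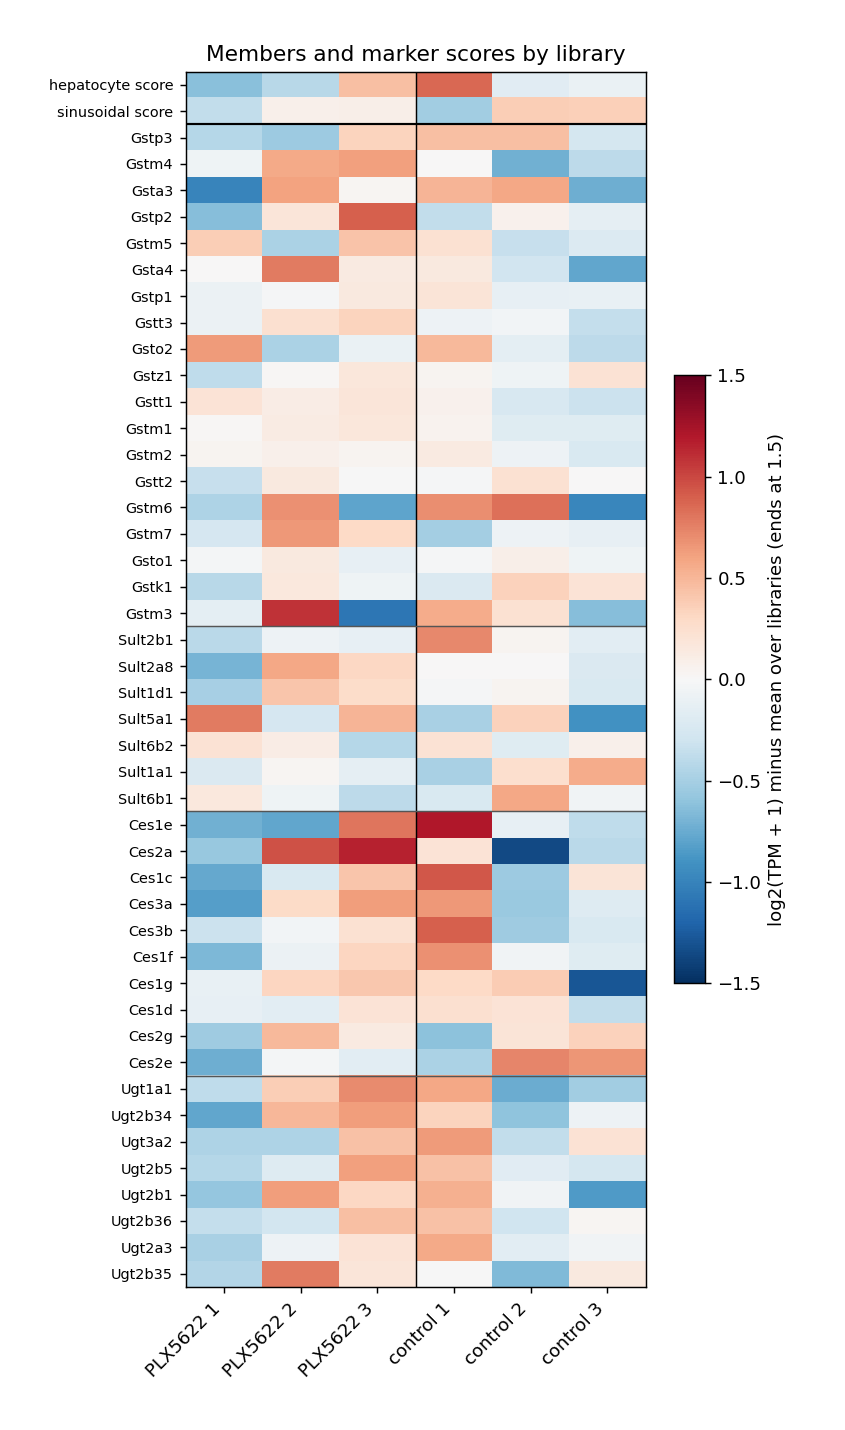
Log2(TPM + 1) minus the mean over the 6 libraries, for the 44 tested members by family, below the centred hepatocyte and sinusoidal scores, with PLX5622 libraries left of control libraries. Colour runs from -1.5 (blue) to 1.5 (red). Most Ugt and Ces rows are low in PLX5622 replicate 1 and high in PLX5622 replicate 3 or control replicate 1, as the hepatocyte score is.

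A second score was built from markers of sinusoidal endothelium. The score of 12 such markers, built in the same way, was -0.37, 0.08 and 0.08 on PLX5622 and -0.52, 0.37 and 0.36 on the control diet, so replicate 1 of both diets was low. A slope above 0.5 on it was found in 6 of 44 members, beside 14.2% of all tested genes, a share near that background. Without control replicate 1 the count was 31 members, beside 21.3% of all tested genes, and these held 8 of 8 Ugt and 9 of 10 Ces genes. With all 6 libraries the members were Ces2e (slope 1.34), Ces2g (1.17), Sult1a1 (0.87), Gstp2 (0.84), Gstm7 (0.70) and Gstk1 (0.65). Leaving out each library in turn, the slope lay between 1.31 and 1.42 for Ces2e, between 0.99 and 1.85 for Ces2g, between 0.56 and 1.02 for Gstk1 and between 0.35 and 1.00 for Sult1a1. The slopes of Ces2e and Ces2g passed adjustment (adjusted p = 0.0271 and 0.0482 in limma), beside 1.97% of all tested genes. They did not hold that call: with each library left out in turn the adjusted p lay between 0.042 and 0.543 for Ces2e and between 0.057 and 0.382 for Ces2g. It was under 0.05 for Ces2e without PLX5622 replicate 3 and in no other case. Gstk1, a kappa-class enzyme of mitochondria and peroxisomes, was at 57.7, 86.6 and 73.8 TPM on PLX5622 and at 66.2, 98.5 and 89.0 TPM on the control diet.

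**Figure D4:**
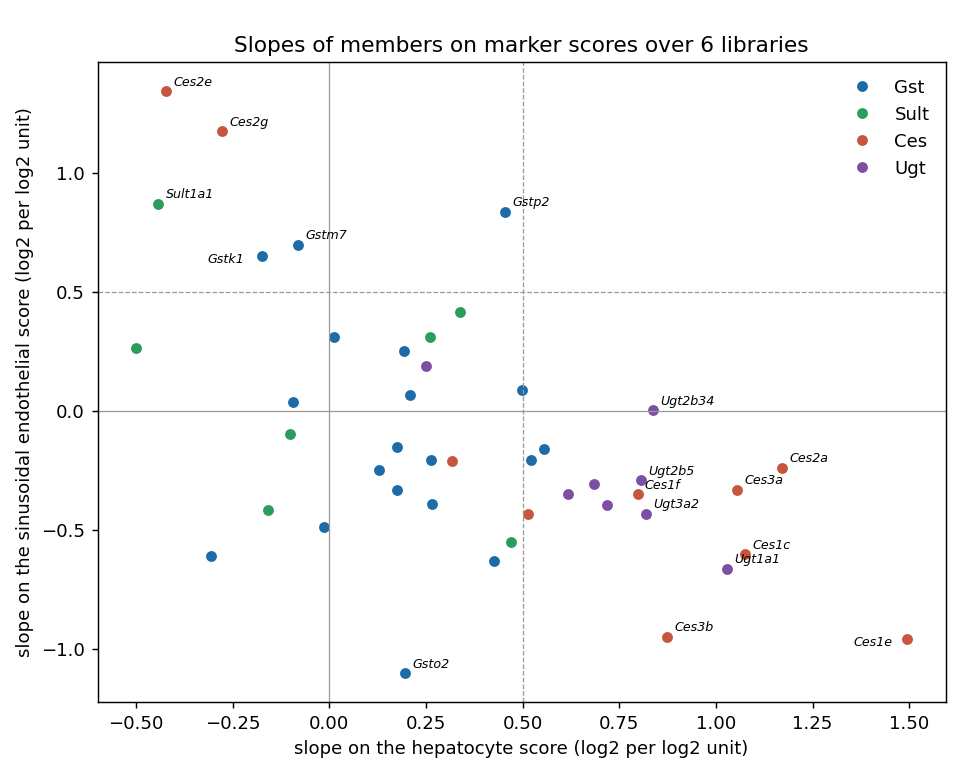
Slope of each of the 44 tested members on the hepatocyte score (horizontal) and on the sinusoidal endothelial score (vertical), each from its own limma fit with diet over 6 libraries. Dashed lines mark a slope of 0.5. Ces2e and Ces2g stand at the top left, and most Ugt and other Ces genes at the right. Without control replicate 1 the hepatocyte slopes of Ces2e and Ces2g were 0.33 and 0.34, so their place at the left rests on that library.

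The genes around these enzymes were read from lists. Of 25 genes known as CAR or PXR induced P450 and other genes, 19 were tested, 6 were higher on PLX5622 at an unadjusted p under 0.05 (1.64% of all tested genes), and 0 were lower (1.7%), with a median log2 fold change of 0.35. The 6 were Cyp2b10, Cyp2c29, Cyp2c50, Cyp2c54, Slco2b1 and Ephx1, of which 0 passed adjustment in limma. The authors' deposited table calls 3 of them, Cyp2b10, Cyp2c54 and Slco2b1, as higher, beside 0.0729% of its genes called. The list was chosen with earlier results of these data known. Cyp2b10, the textbook CAR target, had 26, 41 and 118 reads on PLX5622 and 0 reads in each control library. Ces2a, described above, had an unadjusted p of 0.0993 in the main limma fit. Its unadjusted p was 0.0344 in the authors' deposited table and 0.0121 in limma with the hepatocyte score. In limma it was also under 0.05 without PLX5622 replicate 1 or control replicate 1, and above 0.05 when any other library was left out. Nr1i3, the gene for CAR, was at 1.55 ± 0.737 TPM on PLX5622 and at 1.94 ± 0.461 TPM on the control diet, and Nr1i2, the gene for PXR, at 0.867 ± 0.602 TPM on PLX5622 and at 1.06 ± 0.464 TPM on the control diet (SD, n = 3 each). Both receptors thus stood near the level below which genes were not tested.

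No tested gene for supply of the conjugated groups had an unadjusted p under 0.05 in limma, beside 3.34% of all tested genes. In lists this short, a count of 0 is near that share. Tested were 5 genes for glucuronic acid supply, 9 for sulphate donor supply and 9 for glutathione supply and mercapturate steps. Their median log2 fold changes were -0.07, -0.02 and -0.04, with 5, 5 and 6 genes below 0. Libraries of both diets were apart in 1 sulphate donor gene, lower on PLX5622, beside 4.5% of all tested genes. Ugdh, which makes the glucuronic acid donor, was at 39.7 ± 1.98 TPM on PLX5622 and at 42.8 ± 11.2 TPM on the control diet. Papss2, which makes the sulphate donor, was at 22.9 ± 4.11 TPM on PLX5622 and at 23.3 ± 4.46 TPM on the control diet. Gclc, the catalytic subunit for the first step of glutathione synthesis, was at 56.7 ± 1.53 TPM on PLX5622 and at 58.4 ± 3.13 TPM on the control diet (SD, n = 3 each). Of 5 tested microsomal glutathione transferases, 0 had an unadjusted p under 0.05, again near the 3.34% of all tested genes.

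Of 11 tested genes for other conjugating transferases, 1 was higher at an unadjusted p under 0.05, beside 1.64% of all tested genes. This was Tpmt, the thiopurine methyltransferase, at 5.30, 6.62 and 6.58 TPM on PLX5622 and at 2.81, 3.00 and 2.41 TPM on the control diet. All PLX5622 libraries lay above all control libraries, as in 4.18% of all tested genes. The log2 fold change was 0.94 (95% interval 0.44 to 1.43, adjusted p = 1.00 in limma). Of 14 tested genes for other esterases and hydrolases, 1 was higher and 1 lower at that level, beside 1.64% and 1.7% of all tested genes. Ephx1, the microsomal epoxide hydrolase and also in the CAR and PXR list, was at 368 ± 23.4 TPM on PLX5622 and at 310.2 ± 14.8 TPM on the control diet (log2 fold change 0.24). Mgll, the monoacylglycerol lipase, was at 269.6 ± 17.3 TPM on PLX5622 and at 309.9 ± 13.2 TPM on the control diet (log2 fold change -0.20; SD, n = 3 each).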

How the data were processed

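RNA was measured in 6 libraries, 3 per diet, grouped by the sample titles. Per the submitters' processing notes, the tools were STAR 2.7.10a, featureCounts, Subread 2.0.1, DESeq2 1.32.0 and R 4.1.0, with the mouse build mm39; annotation and counting options were not given in the sources used here. In the authors' expression table values are TPM for 26264 genes. The authors' deposited comparison table holds, for 15097 genes, a mean normalized count (a signal scaled by size factors), a log2 fold change with its standard error, a Wald score, and p-values, raw and adjusted.

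The test took the 13739 genes whose mean reached 1 TPM and ran on log2(TPM + 1), PLX5622 over control, in limma 3.58.1 (R 4.3.3), two-sided and with a trend, with Benjamini-Hochberg adjustment at 0.05 over all of them. Fold changes are on that scale, which understates those of low genes, and 95% intervals are of that fit. The labels name biological replicates. TPM hold no depth, so reads were recovered from the TPM steps and the deposited mean counts. In every library 100% of values under 50 reads came within 0.05 of a whole number. Reads and floors cover counting error only. The steps were tested on simulated data.

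Sequence sharing used GENCODE transcripts of GRCm38 and promoters RefSeq windows of GRCm38.p6. Both are of an older build than the authors' and were used by symbol only. The members and lists were chosen with earlier results of these data known, so lists have counts and medians and no test. Named members are, per family, those at an unadjusted p under 0.05 (or the 2 with the smallest p) and the 3 with the highest level. Added were tested members without overlap and a fixed set (Ugt1a1, Ugt2b5, Gstm1, Gstm3, Gsta1, Gstp1, Sult1a1, Sult2a1, Ces1d and Ces2a). Gsto1, Gstp2, Gstk1, Gstm5, Gstm7, Ces1e, Ugt1a7c, Ugt2b37 and the others named for slopes or zeros were named after their values were seen. So were Nfe2l2, Nr1i3, Nr1i2, Ugdh, Papss2 and Gclc. Alternatives were other pseudocounts, filters and scalings, a replicate block, marker scores as covariates, voom and leaving out each library in turn; the slopes were chosen after the data were seen. Some results, a promoter motif among them, are not reported here.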

Additional observations from a re-analysis of the deposited data

How the results depend on the processing

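No gene passed adjustment under any of 16 alternatives, and the smallest adjusted p of a named member over them was 0.588. The count of members higher at an unadjusted p under 0.05 was 5 with the hepatocyte score in the fit, 1 with voom, and between 0 and 6 when each library was left out in turn. It was 3 with the sinusoidal score (Gstt1, Gstm7 and Gstm4), a covariate chosen after the data were seen. The count of lower members was 2 with a replicate block (Gstk1 and Ces2e), 1 with the sinusoidal score (Ces2e), and between 0 and 2 when each library was left out. Over all tested genes, in either direction, 406 reached that level with the hepatocyte score, 407 with voom and 1085 with the sinusoidal score. Between 304 and 847 did so when each library was left out, against 459 in the main fit. The median log2 fold change of the Gst genes lay between -0.028 and 0.19 when each library was left out. Of 21 named members, 9 kept their sign under every alternative that gave a value. Signs turned with the hepatocyte score in Ugt3a2 (0.0025), Ugt2b5 (0.31), Ugt2b36 (0.15), Ces2g (-0.056), Ces1c (0.041) and Ces1d (0.076), and with the sinusoidal score in Gstp1 (-0.0069). Ugt2b5 also turned with a pseudocount of 5 (0.0023), median-of-ratios scaling (0.0052) and quantile normalization (0.0082). Leaving out single libraries gave ranges across 0 for Ugt2b5 (-0.32 to 0.21), Ugt2b36 (-0.38 to 0.071), Ugt2b1 (-0.13 to 0.59), Gstp1 (-0.046 to 0.12), Sult1a1 (-0.51 to 0.0092), Sult2a8 (-0.12 to 0.51), Ces2g (-0.24 to 0.34), Ces3a (-0.23 to 0.49), Gstm3 (-0.67 to 0.42) and Ces1d (-0.25 to 0.057). The cause was not tested. The replicate numbers mark no stated pairing. Deviations of same-numbered libraries correlated at 0.196, 0.136 and 0.0873, each library best with its own number, a hint from the data only. The replicate block gave 821 genes at an unadjusted p under 0.05, against 459 without it, and 0 calls in both. Depth limits what can be said of the 19 members above 0 with a mean under 1 TPM.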
